A study of Mus musculus with 16 samples.

Results

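The comparison set clones of RBM45 knockout cells that carry a restored RBM45 (KO rescue) against clones of RBM45 knockout cells without it (RBM45 KO). It rests on 8 of the 16 libraries of the study, 4 from KO rescue and 4 from RBM45 KO, chosen by their labelled genotype. All are ribosomal RNA-depleted total RNA libraries of mHiPPoE-2, a transformed line of mouse hippocampal neuron cells with the strain label Crl:CFW(SW)-024, grown without treatment. KO rescue cells are Cas9-made RBM45 knockout cells with F-HA-tagged RBM45_mut[delta]gRNA, given as 2 isogenic clonal isolates, here m2 and m3 after the names in the deposited tables. RBM45 KO cells are Cas9-made knockout cells, also 2 isogenic clonal isolates, here clones 1 and 2. Wild-type (WT) mHiPPoE-2 cells, with 2 libraries, are given beside them as a level only and enter no test. Each clone has 2 libraries, and the clone, which received the edit or the transgene, was taken as the unit. Which knockout clone received the transgene is not given in the sources used here, and effects of the transgene cannot be told apart from effects of picking and growing a further clone.

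RBM45 is an RNA-binding protein with several RNA recognition motifs, named in the title of the series as a binder of N6-methyladenosine (m6A), the most common internal modification of messenger RNA. It shuttles between nucleus and cytoplasm, is expressed in the developing nervous system, and is found in inclusions of patients with amyotrophic lateral sclerosis (ALS) and frontotemporal dementia (FTD). RNA-binding proteins of this kind can act on splice site choice, RNA stability and transport, so exon and intron reads were followed separately.

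Library totals over whole gene bodies were 11810160 to 14776146 counts in KO rescue, 12449202 to 13896565 in RBM45 KO and 8179597 to 10285840 in WT. The 12 genes that took at least 0.5% of any library held 53.3% to 61.6% of the counts in KO rescue and 63.9% to 70.6% in RBM45 KO. The cells had little of the neuronal marker list: 4 of 15 genes reached a mean of 1 CPM (counts scaled to a fixed library size) over the 8 libraries, and Rbfox3, Snap25, Dcx, Stmn2, Nefl, Nefm, Gad1 and Gad2 were at 0 in all 8 libraries. Of the neural progenitor list 5 of 7 reached 1 CPM, among them Nes, Vim, Sox2 and Pax6, with a summed level of 2120 to 3090 CPM in KO rescue and 2330 to 2930 in RBM45 KO. Most of that sum was Vim, at 1810 to 2640 CPM in KO rescue and 1970 to 2530 in RBM45 KO. Hes5 did not reach 1 CPM, and Fabp7 was at 0 in all 8 libraries. In the hippocampal identity list 5 of 8 reached 1 CPM, while Emx1 and Neurod6 were at 0 in all 8 libraries. All 8 mesenchymal markers reached 1 CPM, with sums of 4200 to 4720 CPM in KO rescue and 4050 to 8150 in RBM45 KO. None of the 6 astrocyte or 5 endothelial markers reached that mean, though the astrocyte marker Slc1a3 was at 1.52 CPM in library 1 of KO clone 1.

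Rbm45 itself (ENSMUSG00000042369, mm10, chr2:76369984-76383768) was higher in rescue. Over exons it stood at 42.7, 37.0, 33.2 and 36.8 CPM in the rescue libraries, at 15.2, 11.7, 6.17 and 10.7 in the KO libraries, and at 15.5 and 20.5 in WT. The lowest rescue library thus lay above every KO and WT library, and the transcript was still counted in both knockout clones. The log2 change was 1.78 (SE 0.25) over exons and 1.54 (SE 0.18) over the whole gene body. With clones as units neither passed edgeR's quasi-likelihood test after Benjamini-Hochberg adjustment (adjusted p 0.724 and 0.524), while at the spread between libraries all 4 pairs of a rescue and a KO clone passed over exons (largest adjusted p 0.000522). The 9 coding exons held 36.9 ± 3.98 CPM in rescue and 10.2 ± 3.55 in KO (SD, n = 4 libraries from 2 clones), a ratio of 3.62. The untranslated last bin held 7, 8, 7 and 10 counts in the rescue libraries and 9, 13, 7 and 7 in the KO libraries, so there the groups overlapped. The intron before that bin (chr2:76380566-76383454) had 34, 28, 41 and 42 counts in rescue and 8, 5, 15 and 8 in KO, with no overlap. RNA levels do not show how much protein was made.

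With clones as units no gene passed edgeR's quasi-likelihood test. Over whole gene bodies it called 0 of 16293 genes (0%), while the unadjusted p was under 0.05 for 1521 (9.34%). There DESeq2 called 85 of the 12186 genes it gave an adjusted p (0.698%). Over exons edgeR called 0 of 15081 genes (0%), the unadjusted p was under 0.05 for 885 (5.87%), and 21 were called by DESeq2 (0.139%). Over introns edgeR called 0 of 11049 genes (0%), and the unadjusted p was under 0.05 for 898 (8.13%). There DESeq2 gave an adjusted p to only 553 genes and called 42 of them (7.59%), a share not comparable with those over gene bodies or exons. With 2 clones a side, the smallest p that an exact permutation test allows is 0.333. Over exons edgeR called 1535 genes without KO clone 2 and 4 without KO clone 1, and over introns it called 851 and 2. Each of these fits holds a single KO clone, so its spread comes from the 2 rescue clones alone and the KO clone is assumed to vary like them.

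A narrower description asked which genes parted both rescue clones from both KO clones at the spread between libraries of a clone. Such genes had to be called in the same direction by edgeR in all 4 pairs, which compares clones and not genotypes. Each clone serves in 2 of the pairs. Over exons this held for 14 of 14190 genes (0.0987%), 9 higher in rescue (0.0634%) and 5 lower (0.0352%). The pairs with KO clone 1 had 2758 (19.4%) and 2987 (21.1%) calls each over exons, and those with KO clone 2 had 115 (0.81%) and 98 (0.691%). Single libraries moved the count of 14: it was 2 without library 1 of rescue clone m3, 5 without its library 2, 5 and 4 without library 1 or 2 of KO clone 2, and 24 and 26 without library 1 or 2 of KO clone 1.

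Ide (ENSMUSG00000056999, mm10, chr19:37268743-37337852, minus strand), the gene of insulin-degrading enzyme, a protease that also cleaves amyloid beta, was higher in rescue and used different exons. Over exons it had 59.5, 50.01, 57.7 and 59.9 CPM in rescue, 28.0, 35.7, 28.4 and 26.4 in KO, and 73.9 and 73.3 in WT. Every rescue library was above every KO library and below both WT libraries. The log2 change was 0.93 (SE 0.14), and edgeR called all 4 pairs (largest adjusted p 0.00455). An annotated alternative last exon of 2016 bases lies inside intron 11, in the transcript Ide-203. The 2 annotated ways of leaving exon 11 are given here, from GENCODE mouse release 21 transcripts (GRCm38). Each is shown as the last 30 bases of exon 11 followed by the first 24 of the next exon. Reads were counted in exon bins and not over these junctions. The capitals mark the first stop codon in frame, which begins at base 22 of the alternative exon, after 7 codons. Exon 12 has no stop in frame in the bases shown.
Ide exon 11 to the exon inside intron 11: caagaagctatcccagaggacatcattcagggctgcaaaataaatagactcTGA
Ide exon 11 to exon 12: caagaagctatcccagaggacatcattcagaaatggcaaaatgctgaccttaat

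The 3 exon bins inside intron 11 of Ide had 59, 31, 35 and 46 counts in rescue, 65, 106, 97 and 120 in KO, and 3 and 3 in WT. They include a bin between exon 11 and the alternative exon, with 6, 1, 3 and 4 counts in rescue and 4, 5, 6 and 11 in KO. The exons after that intron had 571, 321, 407 and 514 counts in rescue, 56, 104, 79 and 57 in KO, and 363 and 451 in WT. Rescue was thus below KO and above WT in the bins inside the intron, and above KO downstream. Scaled to CPM, the rescue mean was 0.358 times the KO mean inside the intron, 4.91 times after it and 1.52 times before it. The count after intron 11 over the count before it was 1.17 to 1.36 in the rescue libraries, 0.302 to 0.473 in KO and 1.46 to 1.95 in WT. The count inside over the count before was 0.101 to 0.136 in rescue, 0.417 to 0.635 in KO, and 0.00971 and 0.0161 in WT, so that no library of one genotype overlapped another in either ratio.

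**Figure D1:**
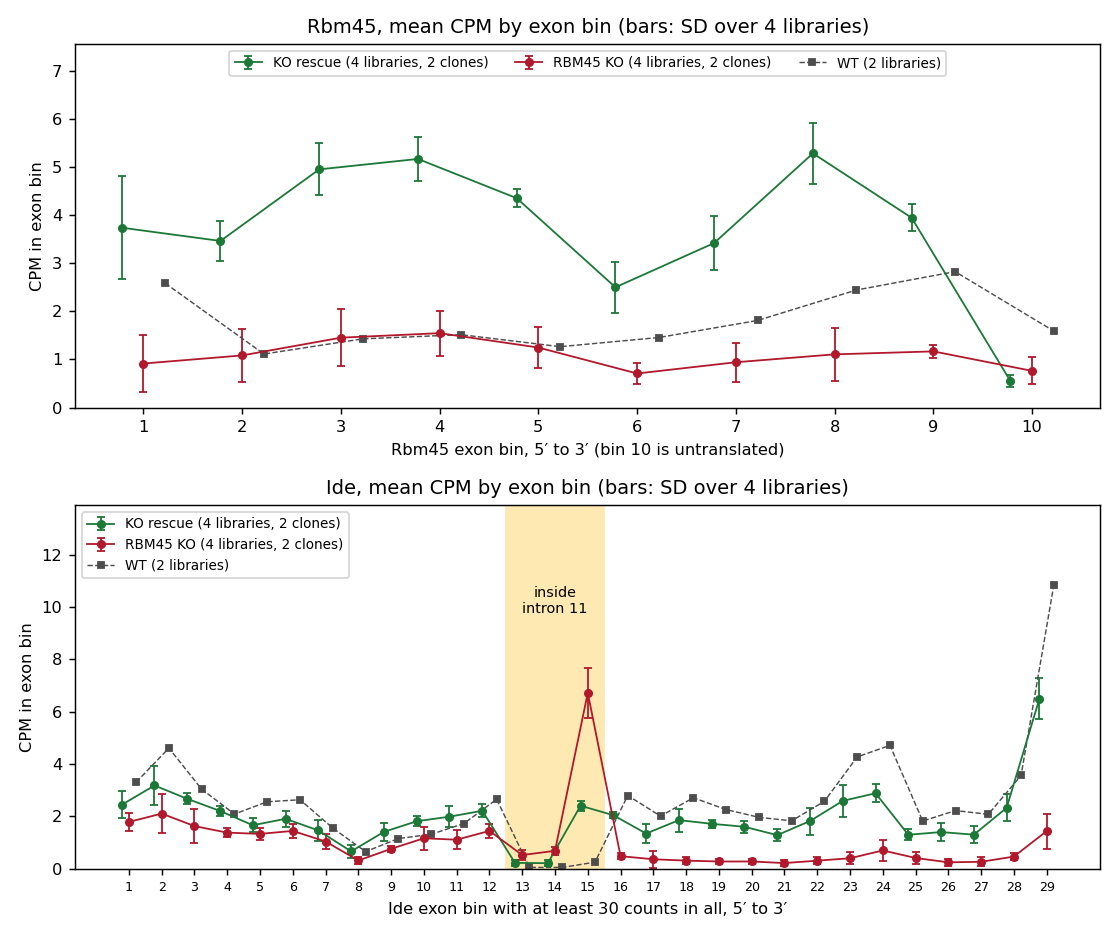
Mean CPM of the exon bins of Rbm45 (top) and of the Ide bins with at least 30 counts in all (bottom), 5′ to 3′, in KO rescue, RBM45 KO and WT, with bars for the SD over the 4 libraries of KO rescue and of RBM45 KO and none for the 2 of WT. Rescue lies above KO over the 9 coding bins of Rbm45 and not in bin 10, and in Ide the KO peak at the bin numbered 15 among those drawn, inside intron 11, is followed by low levels that the rescue line does not share.

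Exon usage was tested over all genes, as the change of each bin relative to the rest of its gene. Of 138307 bins edgeR's diffSpliceDGE called 2 (0.00145%) with clones as units, and 1526 had an unadjusted p under 0.05 (1.1%). For each bin this test pools the spread over all tested bins of its gene, and these can share fragments. It thus does not measure the spread between clones alone. It called 12 without KO clone 2 and 1 without rescue clone m2. The first was the main bin of the Ide exon (chr19:37301663-37303649), at 2.41 ± 0.188 CPM in rescue and 6.72 ± 0.955 in KO (SD, n = 4). Relative to its gene the log2 change was -2.42 (SE 0.21, diffSpliceDGE adjusted p 4.62e-12). With any one of the 4 clones left out its adjusted p was at most 0.0149, in fits where 1 group is a single clone assumed to vary like those of the other. The second was a bin of Snrnp70, the U1-70K protein of the U1 splicing particle (chr7:45381825-45383124, minus strand), annotated as an exon in 2 transcripts that keep intron sequence. It had 61, 47, 51 and 41 counts in rescue, 15, 8, 17 and 31 in KO and 10 and 23 in WT. The rescue libraries lay above the others, with a log2 change relative to the gene of 1.46 (SE 0.25, diffSpliceDGE adjusted p 0.0408). Without KO clone 1 the log2 change was 0.94 and without KO clone 2 it was 2.09, so its size depended on which KO clone was kept. Without rescue clone m2 or m3 it was 1.45 or 1.49.

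The genes Hmgn1, Anxa6 and Rpl41, complete the 5 genes with the smallest p and did not pass. The Anxa6 bin (chr11:54987051-54987068, minus strand) is an exon of 18 bases in the gene of annexin A6, a calcium-dependent membrane-binding protein. It had 30, 28, 21 and 27 counts in rescue, 2, 6, 6 and 11 in KO and 7 and 5 in WT. All rescue libraries lay above all others, while the whole gene differed little (log2 change over exons -0.02, SE 0.10), and the bin's log2 change relative to the gene was 1.80 (SE 0.20, diffSpliceDGE adjusted p 0.0646). It is shown with 21 bases on either side, the exon in capitals, as in the GENCODE transcript that holds it (Anxa6-202). The bins of Hmgn1 and Rpl41, of 30 and 23 bases, lie in genes with many near-identical copies in the genome, so their counts are uncertain.
Anxa6 exon of 18 bases: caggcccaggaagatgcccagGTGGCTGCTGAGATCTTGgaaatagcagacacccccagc

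Beside Rbm45 and Ide, 7 genes were higher in rescue over exons in all 4 pairs. Pex5l, which encodes TRIP8b, an accessory subunit of HCN channels, had 46.5, 44.0, 61.5 and 44.2 CPM in rescue, 5.47, 7.73, 21.6 and 23.7 in KO and 5.36 and 3.55 in WT. Rescue was highest, KO clone 2 intermediate and KO clone 1 near WT, with a log2 change of 1.71 (SE 0.56). Porcn, the acyltransferase that makes Wnt proteins fit for secretion, had 11.2, 11.8, 8.11 and 7.09 CPM in rescue, 3.54, 2.41, 3.09 and 3.46 in KO and 4.15 and 2.78 in WT, a log2 change of 1.602 (SE 0.27). Hecw1, a HECT ubiquitin ligase, had 8.33, 6.87, 6.43 and 7.47 CPM in rescue, 2.43, 2.49, 3.40 and 2.38 in KO and 0.938 and 4.71 in WT, a log2 change of 1.45 (SE 0.21). In both genes the KO libraries lay within or close to the WT range and the rescue libraries above it. Arhgap33, a GTPase-activating protein, had 4.25, 7.45, 6.72 and 6.83 CPM in rescue, 1.82, 1.66, 2.30 and 1.95 in KO and 2.41 and 1.44 in WT, a log2 change of 1.66 (SE 0.25). In this gene too KO stood at the WT level.

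Klhl13, a substrate adaptor of Cullin-3 ubiquitin ligases, was counted together with the gene Gm14523. The joined row had 83, 77, 144 and 176 exon counts in rescue, 0, 0, 17 and 12 in KO and 15 and 9 in WT. Rescue was above KO in every library, and KO clone 1 had no count, so its fitted log2 change of 3.81 (SE 1.14) depends on how zeros are treated. Ifi27l2a, an interferon-induced gene, had 73, 67, 23 and 27 exon counts in rescue, 3, 4, 2 and 5 in KO and 0 and 1 in WT, a log2 change of 3.43 (SE 0.64). Neat1, the long non-coding RNA that builds nuclear paraspeckles, was counted in a joined row with 3 small predicted genes. That row had 227, 261, 281 and 196 CPM in rescue, 180, 123, 98.5 and 91.4 in KO and 159 and 152 in WT, a log2 change of 0.96 (SE 0.23). The lowest rescue library lay just above the highest KO library.

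Over these 9 genes the largest adjusted p of a pair ran up to 0.0423, for Arhgap33 in edgeR's quasi-likelihood test. With the library number as a block, Arhgap33, Hecw1, Porcn and, among the lower genes, Dab2 were no longer called in all 4 pairs, which left 10 of the 14.

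The 4 genes described next were lower in rescue than in KO, and lower in KO than the WT mean. Zfp462, a zinc finger protein of chromatin, had 1.06, 0.414, 0.438 and 0.447 CPM in rescue, 5.97, 6.40, 3.17 and 3.46 in KO and 13.4 and 22.9 in WT, a log2 change of -2.93 (SE 0.49). Cdk6, a cyclin-dependent kinase of the G1 phase, had 11.8, 9.77, 9.57 and 10.2 CPM in rescue, 33.2, 36.7, 20.3 and 21.4 in KO and 40.05 and 54.5 in WT, a log2 change of -1.43 (SE 0.28). Dab2, an adaptor of clathrin-mediated endocytosis, had 4.03, 5.13, 5.33 and 4.66 CPM in rescue, 16.8, 21.3, 10.7 and 10.6 in KO and 48.9 and 37.5 in WT, a log2 change of -1.67 (SE 0.33). In Cdk6 and Dab2 the groups did not overlap and KO clone 1 was above KO clone 2. Sod3, the extracellular superoxide dismutase, had 8.39, 6.21, 8.84 and 9.71 CPM in rescue, 15.6, 14.5, 20.3 and 17.3 in KO and 47.9 and 38.2 in WT, a log2 change of -1.02 (SE 0.20). The rescue clones were thus farther from WT than the KO clones were in these 4 genes. Over the 4 genes the largest adjusted p of a pair was 0.0258, for Dab2 (edgeR quasi-likelihood).

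**Figure D2:**
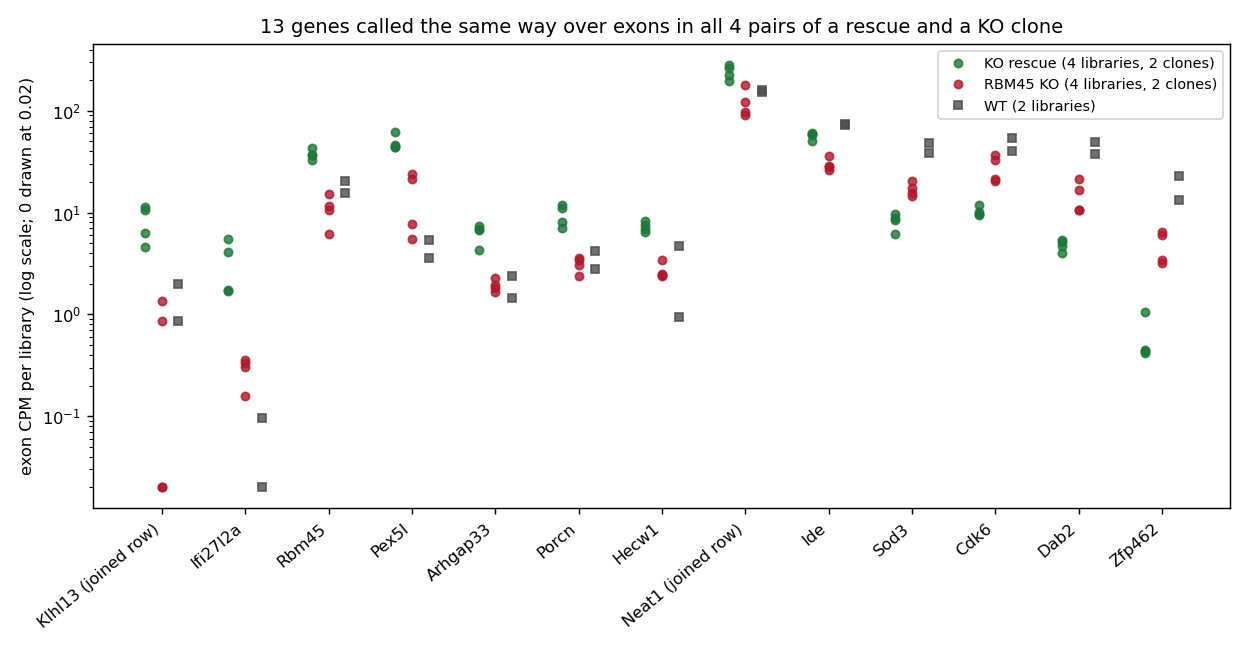
Exon CPM per library, on a log axis with 0 drawn at 0.02, for 13 genes called the same way in all 4 pairs of a rescue and a KO clone, each gene with KO rescue, RBM45 KO and WT from left to right. The 9 genes on the left are higher in rescue and the 4 on the right lower; for Sod3, Cdk6, Dab2 and Zfp462 the rescue points lie farther from WT than the KO points do.

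Phf21b, a PHD finger protein, is among the 5 genes with the smallest p over exons. It had 1.62, 2.07, 1.53 and 1.53 CPM in rescue, 0.304, 0.0831, 0.237 and 0.36 in KO and 0.938 and 1.15 in WT over exons. Rescue was above WT and KO below it, with a log2 change of 2.73 (SE 0.41), and it was called in all 4 pairs over whole gene bodies and not over exons.

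Over whole gene bodies, which include introns, 113 of 15310 genes (0.738%) were called higher in rescue in all 4 pairs and 31 (0.202%) lower. The pairs with KO clone 1 had 3707 (24.2%) and 4183 (27.3%) calls each, and those with KO clone 2 had 618 (4.04%) and 1136 (7.42%). Without library 1 of rescue clone m3 the total of 144 (0.941%) was 27, and it was 37 and 42 without library 1 or 2 of KO clone 2. With the library number as a block it was 86. Of the 113 higher genes, 89 (78.8%) had gene bodies over 100 kb, against 12% of all 16293 genes tested, and their median length was 214 kb against 18 kb. Their median log2 change was 0.95 over gene bodies and 0.67 over exons, positive over exons in all 110 that could be tested there, and 8 were among the 9 genes higher over exons. The 31 lower genes had a median length of 20 kb and a median log2 change of -1.12 over gene bodies and -1.01 over exons, with 29 of 30 of the same sign, and included all 5 of the exon list. Exon reads of the same libraries also enter the gene body counts. The signs over exons are thus not independent of how these genes were chosen.

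Kcnn2 and Wwox were 2 of the 5 genes with the smallest p over gene bodies, and their values differed between intron and exon reads. Kcnn2, the gene of the SK2 calcium-activated potassium channel, had 15.1, 13.2, 15.9 and 10.5 CPM in rescue, 3.998, 3.90, 4.22 and 4.76 in KO and 0.998 and 2.07 in WT over its gene body. The groups were well apart, with a log2 change of 1.70 (SE 0.16), but over exons the change was 0.36 (SE 0.36) and the groups overlapped, and over introns it was 1.55 (SE 0.22). Wwox, an oxidoreductase gene that spans a common fragile site, had 68.5, 83.4, 98.6 and 61.6 CPM in rescue, 45.7, 40.2, 39.2 and 36.5 in KO and 38.3 and 33.7 in WT, a log2 change of 0.94 (SE 0.13). Over exons it was 0.12 (SE 0.17), with overlapping groups, and over introns 0.70 (SE 0.14).

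Longer genes had the more positive gene body changes. The median log2 change over gene bodies was -0.08 in genes under 5 kb and 0.36 in the 163 genes over 500 kb, of which 76.1% were higher in rescue. In those length classes the medians were 0.02 and 0.20 over exons and -0.25 and 0.25 over introns. For the genes over 500 kb the gene body median was 0.34 and 0.43 in the pairs of rescue clones m2 and m3 with KO clone 1, and 0.32 and 0.44 in those with KO clone 2. For the share of reads in introns, genes with at least 0.5% of the intron counts of any library were left out of the introns. Those with at least 0.5% of the exon counts were left out of the exons, so the genes left out differed between the 2 classes. The share was 19.7%, 20.8%, 24.6% and 19.1% in the rescue libraries, 16.1%, 17.4%, 15.2% and 15.2% in KO, and 14.7% and 16.7% in WT. Every rescue library lay above every KO and WT library, while KO and WT overlapped. The clone means of 20.2% and 21.8% in rescue and 16.8% and 15.2% in KO gave a two-sided exact permutation p of 0.333, the lowest possible. With all genes counted in both classes the share ran between 18.8% and 21.7% in rescue, between 16.4% and 19.8% in KO, and was 19.3% and 18.3% in WT, and there rescue and KO overlapped. Library 1 of rescue clone m3 had the highest share in both; without it the median of genes over 500 kb was 0.31. The part of the intron share in the gene body changes was not tested.

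**Figure D3:**
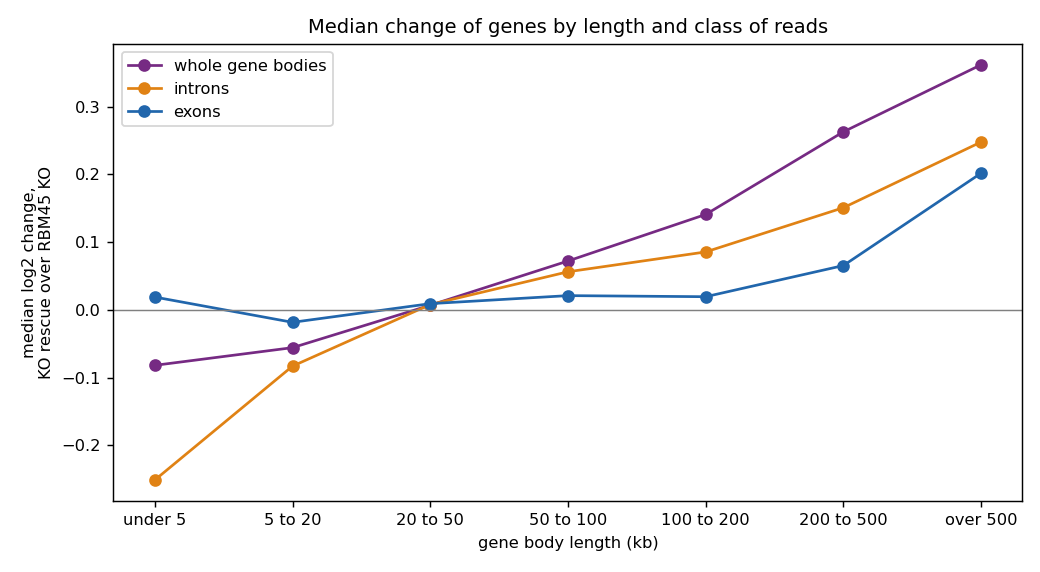
Median log2 change, KO rescue over RBM45 KO, of genes in 7 classes of gene body length in kb, for counts over whole gene bodies, introns and exons, with clones as units. The gene body line climbs from -0.08 under 5 kb to 0.36 over 500 kb, and the exon line stays near 0 up to 200 kb and reaches 0.20 over 500 kb.

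Intron and exon reads of a gene were then tested against each other. Of 9627 genes edgeR's quasi-likelihood test of the interaction called 28 (0.291%) with clones as units, 20 with introns lower relative to exons in rescue (0.208%) and 8 with introns higher (0.0831%). The count was 232 without KO clone 1, 296 without KO clone 2 and 14 without rescue clone m3. Scaling both classes by the gene table, which keeps the higher intron share of the rescue libraries in the test, gave 2602 calls, 2585 of them higher.

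Ide had the smallest p, with a log2 difference of -1.47 (SE 0.13, edgeR quasi-likelihood adjusted p 4.42e-06), since its exon change was 0.93 and its intron change -0.53. Of its intron counts 42.6% fell in the intron that holds the alternative last exon. That intron had 57, 32, 39 and 39 counts in rescue and 59, 102, 90 and 110 in KO. The bins of the alternative exon lie inside it, so the same reads can enter both classes. The intron change of Ide is thus not independent of its exon bin result, and its other introns were not tested apart. Among the other genes of smallest p were Sspn, the gene of the muscle membrane protein sarcospan, and Arhgap21, a GTPase-activating protein. In each nearly all intron counts fell in 1 intron, 99.8% for Sspn and 96.8% for Arhgap21, so the result describes that intron and not the gene. Sspn intron levels were 1698, 2917, 1627 and 2321 CPM in rescue, 7244, 6428, 4740 and 4765 in KO, and 6429 and 4711 in WT. Rescue was well below the rest, with a log2 change of -1.46 (SE 0.25) over introns and 0.08 (SE 0.20) over exons. Arhgap21 changed by -1.23 (SE 0.21) over introns and 0.12 (SE 0.13) over exons. H3f3b, a gene of the replacement histone H3.3, had 7.05, 4.70, 5.07 and 4.97 intron CPM in rescue, 20.6, 9.19, 10.4 and 17.2 in KO, and 16.7 and 23.3 in WT. Its introns were lower in every rescue library, by a log2 change of -1.34 (SE 0.22), against 0.20 (SE 0.11) over exons, with an adjusted p of 0.000483 for the difference (edgeR quasi-likelihood).

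Tmem56 and Dnah7b, among the 5 smallest p over introns, went the same way. Tmem56 had 81.8, 140, 80.0 and 87.7 intron CPM in rescue, 250, 247, 232 and 267 in KO, and 231 and 190 in WT, a log2 change of -1.39 (SE 0.18), while over exons the change was 0.90 (SE 0.81). The intron groups did not overlap, and 99.7% of the intron counts of Tmem56 and 90.4% of those of Dnah7b, a dynein heavy chain gene, fell in 1 intron. Dnah7b changed by -1.15 (SE 0.16) over introns and 0.77 (SE 0.48) over exons. 4930483K19Rik, which is not annotated further here, changed by -1.06 (SE 0.15) over introns. For Sspn, Arhgap21, H3f3b, Tmem56 and Dnah7b the intron levels of every rescue library lay below every KO and WT library. Rescue was also the group with the smaller share of reads in the 12 dominant genes, and the part of that share in these introns was not tested. Ext1, a heparan sulfate polymerase, was 1 of the 8 genes with introns higher in rescue, by 0.89 (SE 0.20) over introns and 0.23 (SE 0.19) over exons; it was chosen after its values were seen.

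Gene lists were described over exons by counts and medians, beside 7717 of 15081 genes higher in rescue, 7364 lower and a median log2 change of 0.01 over all genes. With clones as units no member of any list passed edgeR's quasi-likelihood test, and DESeq2 called 2, Fasn (adjusted p 0.0248) and Malat1 (adjusted p 0.0198). A gene is called separated where every rescue library lies above, or below, every KO library, which held for 774 genes above (5.13%) and 667 below (4.42%). Apart from Col1a1, members named below are those with the smallest p over exons and are not typical of their lists.

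Genes of cholesterol synthesis were lower in rescue. All 24 tested members were below KO, with a median log2 change of -0.53, and 14 were separated below. Sqle, the squalene epoxidase, had 72.3, 83.5, 78.2 and 75.4 CPM in rescue, 106, 107, 106 and 101 in KO and 115 and 139 in WT, a log2 change of -0.46 (SE 0.10). Rescue was the lowest group, with no overlap. Acat2 and Nsdhl changed by -0.58 (SE 0.16) and -0.55 (SE 0.15). The median was -0.35 without KO clone 1 and -0.74 without KO clone 2. All 14 tested genes of fatty acid synthesis were also below KO, with a median of -0.22 and 7 separated. Fasn, the fatty acid synthase, had 348, 386, 362 and 399 CPM in rescue, 685, 620, 595 and 493 in KO and 796 and 694 in WT, a log2 change of -0.69 (SE 0.14). Acly, which supplies acetyl-CoA, Scd2, a desaturase, and Fads2, a desaturase of polyunsaturated chains, changed by -0.53, -0.41 and -0.35 (SE 0.14, 0.12 and 0.10).

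Interferon-response genes stood higher. All 20 tested members were above KO, with a median of 0.88, and 7 were separated above; their levels were low. Ifih1, the sensor of double-stranded RNA also called MDA5, had 2.12, 1.41, 0.804 and 2.24 CPM in rescue, 0, 0.498, 0.633 and 0.288 in KO and 1.47 and 0.768 in WT, a log2 change of 2.19 (SE 0.40). Usp18, a protease that removes ISG15, had 2.40, 2.15, 1.97 and 3.64 CPM in rescue, 0.607, 1.16, 1.19 and 1.23 in KO and 1.74 and 2.02 in WT, a log2 change of 1.27 (SE 0.32). KO was the lowest group in both genes. Xaf1 and the antiviral GTPase gene Mx2 changed by 1.53 (SE 0.35) and 1.67 (SE 0.45). Without KO clone 1 the list median was 0.62 and without KO clone 2 it was 1.47, with 19 of the members higher in each case. Genes of antigen presentation, a separate list that interferon also induces, were lower in 8 of 11, with a median of -0.26, and none was separated above or below. Their median was -0.51 over KO clone 1 alone and 0.04 over KO clone 2 alone.

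Nuclear long non-coding RNAs were higher in 5 of 7 tested, with a median of 0.54 and 3 separated above. Malat1, an abundant RNA of nuclear speckles, counted with Gm27694, had 2573, 2429, 2845 and 2385 CPM in rescue, 1540, 1870, 1741 and 1697 in KO and 1441 and 1716 in WT, a log2 change of 0.56 (SE 0.11). The rescue libraries lay above all others. Kcnq1ot1, an imprinted antisense RNA, changed by 0.55 (SE 0.13) and Firre by 0.54 (SE 0.24), and Neat1 is given above.

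Replication-dependent histone genes were below KO in all 64 tested, with a median of -0.43 and 11 separated below. Hist1h4c had 52.6, 58.5, 54.6 and 58.2 CPM in rescue, 91.5, 64.3, 84.8 and 62.7 in KO and 53.8 and 53.1 in WT, a log2 change of -0.44 (SE 0.11). Rescue and WT were close, and KO libraries were higher and more spread. These genes are near-identical copies whose shared reads were left out, so single members are uncertain. Genes of S phase were lower in 30 of 35, with a median of -0.13 and 4 separated below and 1 above; the median was -0.05 without KO clone 1 and -0.23 without KO clone 2. Ribosomal protein genes were lower in 39 of 52, with a median of -0.14, but the median was 0.03 over KO clone 1 alone and -0.20 over KO clone 2 alone.

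Matrix and mesenchymal genes were lower in 25 of 33, with a median of -0.32, but the median was -0.02 without KO clone 1 and -0.71 without KO clone 2. Their marker Col1a1 had 328, 344, 110 and 139 CPM in rescue and 3270, 3190, 191 and 147 in KO, so KO clone 1 stood alone. Col6a1 had 13.7, 11.7, 16.9 and 15.2 CPM in rescue, 45.1, 42.2, 20.3 and 21.8 in KO and 29.5 and 29.1 in WT, a log2 change of -1.17 (SE 0.37), lower in rescue than in either KO clone. Mmp15, a membrane-bound metalloproteinase, changed by -1.20 (SE 0.27), and Col6a2 by -1.24 (SE 0.38).

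The lists of m6A machinery, splicing factors and ALS genes had medians close to that of all genes. Of the m6A machinery 15 of 25 were higher, with a median of 0.06; Igf2bp3, a reader, changed by 1.08 (SE 0.34) at levels of 0.958 to 1.53 CPM in rescue and 0.304 to 0.712 in KO. Of the splicing factors 24 of 49 were higher, with a median of -0.0036, and Srsf5 had 71.1, 65.0, 66.0 and 69.1 CPM in rescue and 55.1, 55.2, 49.3 and 57.0 in KO, a log2 change of 0.32 (SE 0.10) with no overlap. Of genes linked to ALS and FTD 12 of 19 were higher, with a median of 0.04; Taf15 changed by 0.48 (SE 0.19) and Vcp by -0.33 (SE 0.11). Synapse genes were higher in 16 of 22, with a median of 0.12. Axon guidance genes were lower in 23 of 38, with a median of -0.13; Ephb2, an ephrin receptor, had 4.47, 3.40, 3.36 and 4.28 CPM in rescue, 8.20, 7.31, 8.07 and 7.64 in KO and 3.35 and 1.92 in WT, a log2 change of -0.99 (SE 0.19).

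**Figure D4:**
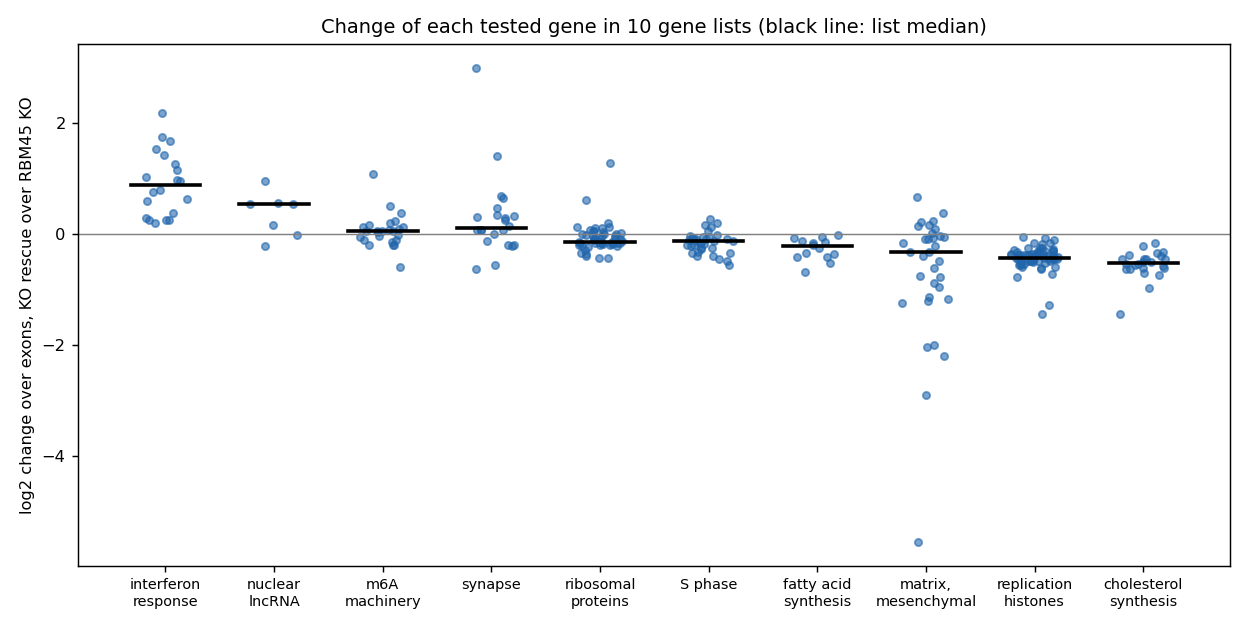
Log2 change over exons, KO rescue over RBM45 KO, of each tested gene in 10 gene lists, with clones as units and a black line for each list's median. All points of the interferon list lie above 0, with a median of 0.88, and all points of the cholesterol, fatty acid and histone lists lie below, with medians of -0.53, -0.22 and -0.43.

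Chromosome 1 moved as a whole. Of its 984 tested genes 71.1% were lower in rescue over exons, with a median log2 change of -0.21, while the medians of the other chromosomes were between -0.08 and 0.14. Set against WT, the median of chromosome 1 genes was -0.06 and -0.07 in rescue clones m2 and m3, 0.42 in KO clone 1 and -0.08 in KO clone 2. Over the whole chromosome KO clone 1 stood apart from the other 3 clones. It was above WT by a median of 0.29 to 0.51 in each of 10 windows of 20 Mb, but in the window from 0 to 20 Mb the medians of rescue clones m2 and m3 and KO clone 2 were also above WT, at 0.31, 0.24 and 0.23, against 0.38 in KO clone 1. Leaving out chromosome 1 kept the count of genes called over exons in all 4 pairs at 14 and gave 134 over gene bodies.

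**Figure D5:**
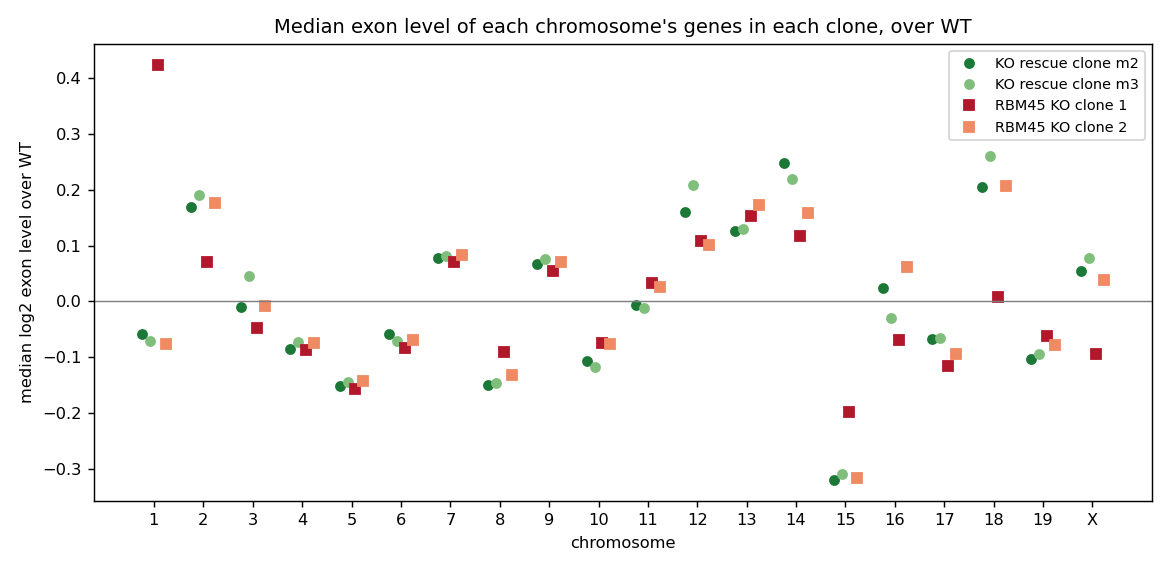
Median log2 exon level over WT of the genes of each chromosome, with points for KO rescue clones m2 and m3 and RBM45 KO clones 1 and 2. On chromosome 1 KO clone 1 is at 0.42 and the other 3 clones are between -0.08 and -0.06.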

How the data were processed

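The authors' deposited values are raw fragment counts, used as deposited: a gene table over whole gene bodies, an exon table of non-overlapping bins, and an intron table, made with featureCounts 1.6.3 per the file headers, which give a minimum overlap of 0.1. HISAT2 2.1.0, mm10, Subread 1.6.3, featureCounts 1.6.5, DESeq2 1.32.0 and R 3.6.0 are named in the submitters' processing notes. Per the labels' protocols the library kit is non-directional, while only the feature's strand was counted, per the file headers; a gene and its antisense partner cannot be told apart. A fragment over several bins counts in each.

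Exon bins were summed per gene. Introns were matched to genes through their RefSeq transcripts and summed per gene, and those that matched no single gene were left out. Libraries of a clone were added, and clones were compared by edgeR 4.0.16 (R 4.3.3; TMM, filterByExpr, quasi-likelihood test, Benjamini-Hochberg adjusted p under 0.05 over all genes); SE is the log2 change over the root of F. CPM uses TMM library sizes. The 4 clone pairs were fitted on the 8 libraries. Introns were tested against exons as an interaction, and bins with diffSpliceDGE, both at a mean of at least 10 counts. These fits were also run on simulated counts with planted changes and a fixed spread. The simulation held no differences between clones of a group, so it cannot show how the fits handle such differences. DESeq2 1.42.0, limma 3.58.1, other filters and scalings, and leaving out each clone or library were tried. Named genes are Rbm45, the 5 smallest p of each test, and the genes called in all 4 pairs over gene bodies and exons at 2 CPM or more. Those called genes also had to have every rescue library above, or below, every KO library, so their lack of overlap was a condition. Up to 4 members of each list described were named, those with the smallest p over exons. Ifi27l2a, Col1a1 and Ext1 were chosen after their values were seen. The members and lists were chosen with earlier results of these data known. Some genes are not reported here.

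Whether libraries of a clone are separate cultures is not stated, so p-values over libraries may measure technical spread. They differed by more than sampling noise (chi-square per degree of freedom 2.75 to 6.04). The 6 other sample columns were not used, 4 of which match no label. Gene symbols came from GENCODE mouse release 21.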

Additional observations from a re-analysis of the deposited data

Results flagged for a closer look

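Of 100 sets of 4 libraries examined, 7 had a library far from the other 3; chance gives about 1 in 20. In KO rescue, 1 library stood at 1.06 CPM for Zfp462 over exons against 0.414 to 0.447 in the others, and 1 at 2.07 CPM for Phf21b over exons against 1.53 to 1.62. For Pex5l over exons 1 rescue library had 61.5 CPM and the others 44.0 to 46.5. For Tmem56 1 rescue library had 38.2 CPM over the gene body against 22.3 to 24.4, and 1 had 2.91 CPM over exons against 0.658 to 1.02. In RBM45 KO, 1 library stood at 3.40 CPM for Hecw1 over exons against 2.38 to 2.49, and 1 at 2.88 CPM for Dnah7b over exons against 1.72 to 1.91. The causes were not tested.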

How the results depend on the processing

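Of 152 alternatives, 27 moved a count of calls by over 1.5 times and 35 did not. Another 6 turned a gene's direction, and 84 kept the sign of a gene's change or a list's median, or a share within 1 SD, although sizes moved, as from 1.70 over gene bodies to 0.36 over exons in Kcnn2. The causes were not tested. DESeq2 called 85 genes over gene bodies, 21 over exons and 42 over introns, where edgeR called 0. Without 1 clone the calls were 0 to 1535 over exons, 0 to 851 over introns and 0 over gene bodies. Introns against exons gave 2602 with the gene table's library size and 14 to 296 without 1 clone. All fits without 1 clone take their spread from the other group's 2 clones. Genes called in all 4 pairs numbered 242 over gene bodies and 51 over exons with no filter beyond 1 count, 27 to 194 and 2 to 26 without 1 library, and 86 and 10 with the library number as a block. Differences between library 1 and library 2 correlated weakly between clones (-0.202 to 0.207). Whether libraries of the same number belong together was not settled. Bins called numbered 7 at a minimum mean of 30, 20 with limma, and 1 to 12 without 1 clone; Ide stayed called. Over introns Ide changed by -0.53 and H3f3b by -1.34, and over exons Tmem56 changed by 0.90, Dnah7b by 0.77, Sspn by 0.081 and Arhgap21 by 0.12, each against its sign over gene bodies. The fit of 6 clones was not run, because no label names the columns that may hold the control clones. Depth limits the precision of genes with few counts.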

Other observations

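Of 32 tested genes of a list of stress responses 18 were higher in rescue over exons, with a median log2 change of 0.05, against 0.01 over all genes. In 3 of them every rescue library lay above every KO library, which held for 5.13% of all genes. Ddit3, the transcription factor CHOP, had 24.2, 22.2, 26.0 and 21.1 CPM in rescue, 11.1, 8.97, 15.99 and 14.5 in KO and 33.5 and 16.3 in WT, a log2 change of 0.88 (SE 0.23). Chac1, which degrades glutathione, had 17.7, 26.7, 17.98 and 16.4 CPM in rescue, 9.41, 8.72, 14.7 and 10.7 in KO and 38.2 and 6.43 in WT, a log2 change of 0.81 (SE 0.23). Trib3, a pseudokinase and the third of these genes, changed by 1.10 (SE 0.31). The WT libraries lay on both sides of rescue for Ddit3 and Chac1.

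Genes of Wnt signalling were lower in 14 of 19 tested, with a median of -0.27, 4 separated below and 1 above. The median was -0.31 over KO clone 1 alone and -0.10 over KO clone 2 alone. Lgr6, a receptor for R-spondins, had 1.40, 1.49, 1.46 and 1.72 CPM in rescue, 15.5, 14.4, 2.93 and 3.89 in KO and 12.2 and 23.9 in WT, a log2 change of -2.59 (SE 0.73). Rnf43, a ubiquitin ligase that removes Wnt receptors, had 0.0559, 0.248, 0 and 0.0639 CPM in rescue and 2.33, 2.49, 0.791 and 0.649 in KO. Both genes were lower in rescue than in either KO clone, and lower in KO clone 2 than in KO clone 1. No gene of either list was called over exons by edgeR or DESeq2 with clones as units.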
